A study of Mus musculus with 12 samples.

Results

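Long noncoding RNAs of mouse splenic follicular (FO) B cells were followed across 4 groups of 3 samples each, in cells of C57BL6 mice that were 10 weeks old. FO B cells were sorted by their surface markers, among them B220hi, AA4.1-, CD23+ and CD21mid, and were left unstimulated or stimulated for 12 h with IFNα, with CpG, or with CpG plus IFNα (CpG + IFNα). CpG stands for the oligodeoxynucleotide ODN1826, a ligand of TLR9, and IFNα belongs to the type I interferons. No group carried a transgene or a deletion, and the sources used here do not state whether unstimulated cells were also kept in culture or whether the samples of a group came from separate mice. P-values therefore measure the spread between these samples, which may be technical. RNA was measured by BRB-seq, a pooled 3′ method in which reverse transcription from the poly(A) tail marks each molecule with its sample and with a unique molecular identifier (UMI). Counts therefore stand for molecules that oligo-dT primed, at a poly(A) tail or at an A-rich stretch within the RNA. Malat1 and the long form of Neat1 are known to lack a poly(A) tail, so that their counts do not measure all of their RNA. The genes were chosen by 2 properties of the deposited count table, an annotation as a long noncoding RNA (7 biotype names were accepted) and a sum of at least 240 UMI counts over the 12 samples. This rule gave 91 genes of the 22561 in the table and of the 2805 with such an annotation.

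Long noncoding RNAs are transcripts that are not translated into a protein of known function. Some act in the nucleus, where Xist coats the inactive X chromosome and Neat1 builds the bodies called paraspeckles. Others are the hosts of small RNAs: the snoRNAs that guide modification of ribosomal RNA are cut from introns of Snhg and Gas5 transcripts, and microRNAs are cut from Mir155hg and Mir17hg. In B cells, miR-155 is known for its part in the germinal center response and the miR-17 to miR-92 cluster for B cell growth and survival.

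The 91 genes made up 3.24% of the long noncoding genes of the table but held 74.5% of their counts, whereas 471 such genes had no count at all. They comprised 38 lincRNA, 31 processed_transcript, 16 antisense, 3 sense_intronic and 3 bidirectional_promoter_lncRNA genes. In GENCODE M21 (GRCm38) they had a median of 4 exons and 23 had a single exon. The last genes inside the rule were A430035B10Rik, Gm42047 and AA465934, with sums of 250, 248 and 241 counts, and the first ones outside were Gm43813, 4930426D05Rik and B930036N10Rik, with sums of 237, 237 and 235 counts. Since libraries of CpG-stimulated cells were deeper, a raw sum favors genes that are high in them. The label did not hold for every gene. Ifi30, which encodes the lysosomal thiol reductase GILT, is a protein-coding gene in RefSeq, as is Gm32856, and Gm10076 is a pseudogene there. Gm47283 lies on chromosome Y, 90784738 to 90816464, in the pseudoautosomal region and is protein-coding in GENCODE M21. Ddx3y and Uty, which are Y-linked, had 2 and 3 counts over all samples, whereas Xist had 4390.

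Total depth ranged from 922450 to 1103064 UMI counts in unstimulated cells, 1067324 to 1689570 with IFNα, 1393018 to 1985810 with CpG and 1884673 to 2923865 with CpG + IFNα. Levels are given as CPM, which are counts scaled to a common library size with TMM normalization. The 10 B cell markers were present in every library, with a summed level of 18300 to 20900 CPM in unstimulated cells, 17400 to 19400 with IFNα, 6580 to 6830 with CpG and 5870 to 5980 with CpG + IFNα, and 8 of them were down-regulated with CpG (median log2 fold change -2.84). The summed level of the T cell markers was at most 6.42 CPM, of the NK cell markers at most 4.55 CPM and of the myeloid markers at most 28.9 CPM. The plasmacytoid dendritic cell list, which holds genes that B cells also express, summed to between 162 and 489 CPM, and the erythroid markers to between 4.99 and 345 CPM, highest in unstimulated cells. The part of these markers in the results was not tested. In bulk samples, fewer cells of a type and less RNA per cell cannot be told apart. By chi-square per degree of freedom, a pair of libraries stood apart from the others of their group. These were IFNα replicate 2 (4.98 and 6.72 against its fellows, against 2.37 between these) and CpG + IFNα replicate 2 (5.01 and 7.22, against 2.88). This measure grows with depth, and CpG + IFNα replicate 2 was the deepest library. The median absolute deviation of its genes from their group mean, on the log2 scale, was 0.102, against 0.102 and 0.101 in its fellows. For IFNα replicate 2 it was 0.146, against 0.136 and 0.118. In IFNα replicate 2, mitochondrial and rRNA genes took 11.65% of the counts, against 8.264% and 6.906% in the other IFNα samples, and 64 of the 91 genes lay above their group mean. Where a named call was lost without 1 of these libraries, this is stated beside the call or among the closing observations.

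The microRNAs that lie within the bounds of 7 of the genes are shown first, since their hosts moved in opposite directions. Mature sequences are from RefSeq (GRCm38.p6), and capitals mark the seed, bases 2 to 8, which pairs with target transcripts. Mir155hg holds miR-155 on chromosome 16. Mir17hg holds 6 microRNA genes on chromosome 14, in which miR-17-5p and miR-20a-5p share a seed and miR-19a-3p and miR-19b-3p share another. Dleu2 holds miR-15a and miR-16-1, also on chromosome 14, whose 5p arms share a seed. Mir142hg on chromosome 11 holds miR-142a.
mmu-miR-155-5p: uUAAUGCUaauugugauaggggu
mmu-miR-17-5p: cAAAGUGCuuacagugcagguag
mmu-miR-20a-5p: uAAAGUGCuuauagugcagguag
mmu-miR-19a-3p: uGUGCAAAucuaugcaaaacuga
mmu-miR-19b-3p: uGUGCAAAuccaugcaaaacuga
mmu-miR-18a-5p: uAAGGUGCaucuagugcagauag
mmu-miR-92a-3p: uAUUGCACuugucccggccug
mmu-miR-15a-5p: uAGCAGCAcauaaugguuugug
mmu-miR-16-5p: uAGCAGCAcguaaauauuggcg
mmu-miR-142a-3p: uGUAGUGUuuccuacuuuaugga

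All 91 genes passed the filter on low counts and were tested, together with 9431 genes in all, by edgeR's quasi-likelihood test. Calls of up-regulated and down-regulated genes required a log2 fold change beyond 1 in either direction together with an adjusted p (Benjamini-Hochberg) below 0.1. With IFNα alone, 11 of the 91 were up-regulated and 7 down-regulated, where the shares over all genes tested were 4.56% and 4.07%. With CpG alone, 20 were up-regulated and 34 down-regulated, beside 20.1% and 25.5% of all genes. With CpG + IFNα, 27 were up-regulated and 28 down-regulated, beside 20.3% and 25.6%. Against CpG alone, CpG + IFNα raised 7 and lowered 2, beside 2.95% and 2.01%. The interaction, which is the change with IFNα in the presence of CpG minus that in its absence, was called in 9 genes upwards and 7 downwards, beside 3.09% and 3.17%. Thus the shares of the 91 genes were 12.1% and 7.69% with IFNα, 22% and 37.4% with CpG, and 29.7% and 30.8% with CpG + IFNα. They were 7.69% and 2.2% for CpG + IFNα against CpG and 9.89% and 7.69% for the interaction. The minimum of 240 counts favors genes that a stimulus raises, and also genes that are high in unstimulated cells. Lowered genes such as Gm15411, Gm31243, Gm12158, Gm15675, Mirt1, 4833407H14Rik and A430035B10Rik met it only with their counts in unstimulated cells. Nothing is therefore read from the shares of lowered genes, and the falls of such genes are descriptions. Of the 11 genes raised by IFNα, 5 (Dleu2, A330040F15Rik, A930037H05Rik, A530040E14Rik and Gm32856) had fewer than 240 counts outside the IFNα samples, as had 4 of the 20 raised by CpG outside the CpG samples (Pvt1, Dancr, Gm32856 and Gm42047) and 10 of the 27 raised by CpG + IFNα outside that group, among them these 4, Mir155hg and 2700038G22Rik, so that nothing is read from the shares of raised genes and the rises of the genes named here are given as descriptions. Over the 91 genes the median log2 fold change was 0.12 with IFNα and -0.45 with CpG, against -0.0012 and -0.03 over all genes tested. In all, 65 of the 91 genes (71.4%) were called in at least 1 comparison and 26 in none, where 54.6% of all genes tested were called in at least 1. The plot of levels by sample shows the 91 genes ordered by their change with CpG.

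**Figure D1:**
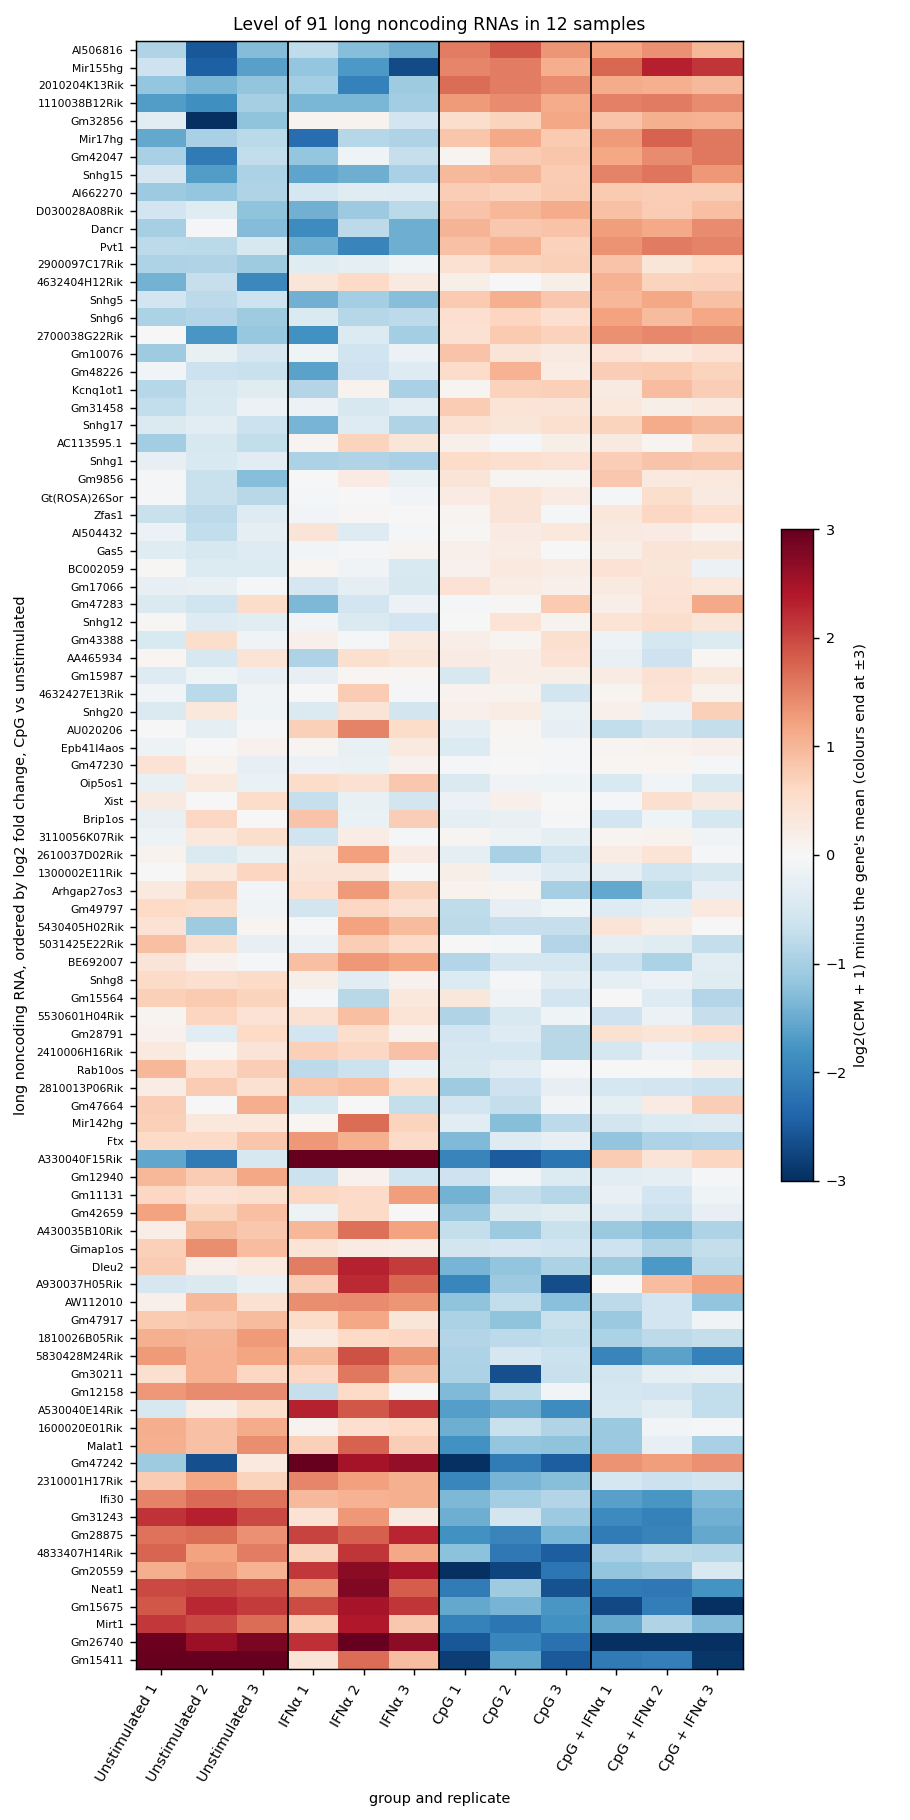
Level of each of the 91 long noncoding RNAs in each of the 12 samples, as log2(CPM + 1) minus the gene's mean over the samples, with genes ordered by their log2 fold change between CpG and unstimulated cells. Upper rows such as AI506816, 1110038B12Rik and AI662270 were low in the 6 samples without CpG and high in the 6 with it, and the lowest rows, from Ifi30 to Gm15411, show the opposite. A330040F15Rik and Gm47242 were highest in the 3 IFNα samples.

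The genes took less of the library with CpG. Their summed share was 0.750% to 0.912% of all counts in unstimulated cells, 0.668% to 1.05% with IFNα, 0.491% to 0.570% with CpG and 0.559% to 0.677% with CpG + IFNα. This difference lay mostly in 1 transcript, Malat1, the abundant nuclear speckle RNA on chromosome 19, 5795690 to 5802672. Without Malat1 the shares were 0.482% to 0.528%, 0.449% to 0.578%, 0.451% to 0.506% and 0.495% to 0.565%, and these ranges overlapped between unstimulated cells and each stimulus. The 10 genes with the highest mean level were Malat1, Gas5, Xist, Kcnq1ot1, Zfas1, 2410006H16Rik, AI662270, Ifi30, Gm31458 and Snhg1.

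Among the nuclear and chromatin RNAs, Malat1 and Neat1 fell with CpG. Malat1 was at 2974, 2640 and 3742 CPM in unstimulated cells, 2358, 4850 and 2382 with IFNα, 403, 640 and 620 with CpG, and 657, 1196 and 725 with CpG + IFNα. The samples with CpG all lay below those without it. The log2 fold change with CpG was -2.49 (SE 0.22, adjusted p = 9.21e-12 from edgeR) and with CpG + IFNα -1.86 (SE 0.21, adjusted p = 2.99e-09). Malat1 with IFNα alone differed little on average (0.04, SE 0.21), but this rested on replicate 2. Without that library the log2 fold change was -0.39 (adjusted p = 0.114), and the interaction of Malat1 became called, at 1.03 (adjusted p = 0.00301). Neat1, whose gene is the neighbor of Malat1 on chromosome 19 (5824708 to 5845478), was at 118, 123 and 116 CPM in unstimulated cells, 74.7, 206 and 105 with IFNα, 6.14, 13.5 and 3.99 with CpG, and 6, 5.86 and 7.71 with CpG + IFNα. Its groups with and without CpG did not overlap, at a log2 fold change of -3.99 with CpG (SE 0.32, adjusted p = 8.97e-13). Of 12 genes of paraspeckle proteins, which bind Neat1, 3 were up-regulated with CpG (Pspc1, Tardbp and Nudt21) and none was down-regulated, beside 20.1% and 25.5% of all genes tested, with a median log2 fold change of 0.59.

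Xist, Ftx and Kcnq1ot1 did not follow Malat1 in every respect. Xist was at 267, 219 and 320 CPM in unstimulated cells, 136, 188 and 150 with IFNα, 193, 245 and 217 with CpG, and 213, 306 and 266 with CpG + IFNα. All 3 IFNα samples lay below the unstimulated ones, but the log2 fold change of -0.76 (SE 0.15, adjusted p = 0.00022) did not reach the size required for a call. With CpG present, the change of Xist with IFNα was 0.27 (SE 0.14), and the interaction of 1.03 was called (SE 0.20, adjusted p = 0.000767). It fell below the size for a call in 5 of the 12 fits that left out 1 sample, at between 0.89 and 0.98, for unstimulated replicate 3, IFNα replicates 1 and 3, CpG replicate 1 and CpG + IFNα replicate 2. Ftx, a transcript of the X inactivation center, fell with CpG (-1.29, SE 0.26, adjusted p = 6.02e-05). Kcnq1ot1, an imprinted antisense RNA of 93092 bases in 1 exon, rose from 104 to 146 CPM in unstimulated cells to 201 to 311 CPM with CpG, a log2 fold change of 1.09 (SE 0.20, adjusted p = 1.87e-05). The calls of Kcnq1ot1 (without unstimulated replicate 1, 0.97, or CpG replicate 3) and of Ftx (without CpG replicate 1) were lost at the limit of size. Of the 7 genes tested of a list of nuclear and chromatin RNAs that also holds less abundant ones, 1 was up-regulated and 4 were down-regulated with CpG, beside 20.1% and 25.5% of all genes tested.

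Several hosts of snoRNAs rose with CpG. Of the 18 genes with a snoRNA or scaRNA gene within their bounds, 7 were up-regulated and 1 was down-regulated with CpG, beside 20.1% and 25.5% of all genes tested, and 10 and 1 with CpG + IFNα, beside 20.3% and 25.6%. Of the raised hosts, Dancr had 204 counts outside the CpG samples and 132 outside the CpG + IFNα samples, and 2700038G22Rik had 198 outside the latter, so that they met the rule only through the group in which they were raised. The median log2 fold changes of the 18 were 0.80 and 1.13, where those of all genes tested were -0.03 and -0.01. With IFNα alone edgeR called 0 of the 18, as did DESeq2, although 7 had an unadjusted p under 0.05, and the median was 0.03. A gene of this group, Gas5 (chromosome 1, 161034422 to 161038539), holds 10 annotated snoRNA genes, a pair of which overlap and are both named Snord80, and Snhg1 holds 8. The snoRNAs, which lack a poly(A) tail, were not what the method was made to count.

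1110038B12Rik, which holds Snord52 and a second snoRNA gene on chromosome 17 (34950238 to 34952471), had the smallest p-value of all these hosts. It was at 30.0, 26.7 and 48.5 CPM in unstimulated cells, 37.3, 37.7 and 47.3 with IFNα, 242, 264 and 216 with CpG, and 285, 294 and 264 with CpG + IFNα. The samples with CpG were separated widely from those without, at a log2 fold change of 2.75 (SE 0.16, adjusted p = 3.79e-16). AI506816 (chromosome 5, 23698296 to 23712667) rose from 15.5, 4.28 and 11.5 CPM to 87.2, 110 and 75.4 CPM with CpG, and was at 68.7, 77.6 and 60.1 CPM with CpG + IFNα. Its log2 fold change with CpG was 3.06 (SE 0.25, adjusted p = 1.28e-12), the largest rise with CpG among the 91 genes. The only small RNA gene within AI506816 is annotated as a snoRNA but carries the microRNA name Mir3096, so that its place among the snoRNA hosts is uncertain.

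Among the Snhg genes proper, Snhg15 (1.89), Snhg5 (1.55) and Snhg6 (1.54) were up-regulated with CpG, as was Dancr (1.77), which holds Snora26. Snhg5 was at 58.2, 50.3 and 56.5 CPM in unstimulated cells and at 151, 183 and 153 CPM with CpG. Snhg6 was at 33.7, 35.3 and 30.9 CPM in unstimulated cells, at 93.9, 103 and 93.4 CPM with CpG, and at 152, 127 and 148 CPM with CpG + IFNα. For Snhg6 the CpG + IFNα samples lay above the CpG samples, but the difference of 0.55 (SE 0.12, adjusted p = 0.00124) was under the size for a call. Snhg1 (1.15), Snhg17 (1.43) and Zfas1 (1.1) passed the size required with CpG + IFNα but not with CpG alone (0.85, 0.92 and 0.74), and none of these was called between CpG + IFNα and CpG. Snhg1 lay lower in the IFNα samples (77.7, 80.9 and 76.3 CPM) than in unstimulated cells (126, 110 and 118 CPM), at a log2 fold change of -0.60 (SE 0.13, adjusted p = 0.000814).

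Not every host rose. Gas5, the most abundant one, was at 343, 312 and 334 CPM in unstimulated cells, 417, 423 and 464 with IFNα, 486, 517 and 433 with CpG, and 496, 576 and 566 with CpG + IFNα. Every stimulated sample of Gas5 lay above every unstimulated one, yet its largest log2 fold change was 0.73 (SE 0.11, adjusted p = 5.42e-07) and it was called nowhere. Snhg8 and 2410006H16Rik were at -0.83 and -0.89 on the log2 scale with CpG, and A430035B10Rik was at -1.59 (SE 0.32). The fall of A430035B10Rik is a description, since 61 of its 250 counts lay in unstimulated cells. It met the minimum sum of counts only with them. Among genes of the 11 snoRNP core proteins, which bind snoRNAs, 11 were up-regulated with CpG, beside 20.1% of all genes tested, with a median log2 fold change of 2.66, for example Fbl (2.18), Nop56 (2.44) and Dkc1 (2.57). With IFNα edgeR and DESeq2 each called 0 of them and 3 had an unadjusted p under 0.05. Genes of the nuclear RNA exosome, which degrades noncoding RNA, were up-regulated with CpG in 10 of 15 tested (median 1.37), among them Dis3 (2.12) and Exosc2 (1.67). Of 10 genes of nonsense-mediated decay, the pathway known to degrade spliced snoRNA hosts, none was up-regulated with CpG and 1, Smg1, was down-regulated (-1.16), with a median of 0.08.

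**Figure D2:**
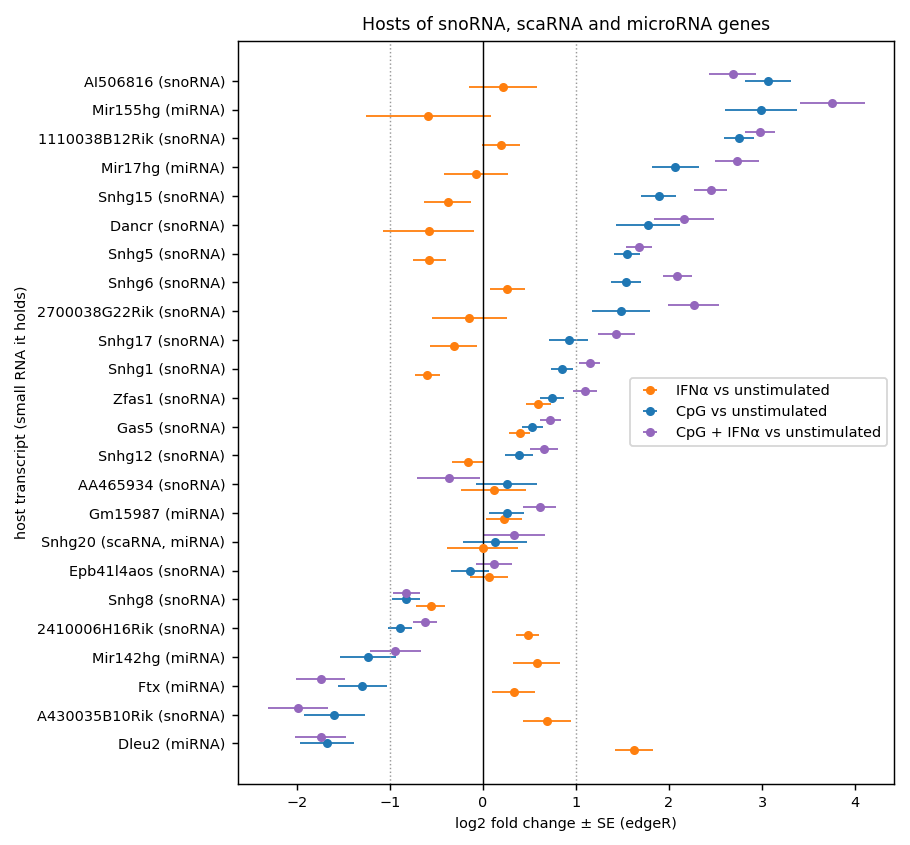
Log2 fold changes of 24 hosts of snoRNA, scaRNA or microRNA genes against unstimulated cells, with bars for the SE from edgeR, in cells given IFNα, CpG or CpG + IFNα (n = 3 samples in each group). The hosts from AI506816 down to 2700038G22Rik lie beyond the dotted line at 1 with CpG, Dleu2 stands at 1.63 with IFNα and at -1.68 with CpG, and 18 of the hosts hold a snoRNA or scaRNA gene.

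The microRNA hosts did not move together. Of the 7, CpG raised Mir155hg and Mir17hg and lowered Dleu2, Mir142hg and Ftx, and IFNα raised Dleu2 alone, beside 20.1% raised and 25.5% lowered by CpG and 4.56% raised by IFNα among all genes tested, and nothing is read from counts over so few genes. Mir155hg (chromosome 16, 84703167 to 84715245) was at 6.37, 1.07 and 2.65 CPM in unstimulated cells, 4.04, 2.43 and 0.763 with IFNα, 30.1, 32.1 and 23.0 with CpG, and 36.5, 55.9 and 49.3 with CpG + IFNα. Its samples with CpG lay above all those without, at a log2 fold change of 2.98 (SE 0.39, adjusted p = 3.55e-08). This was 3.82 without unstimulated replicate 1, the highest of the unstimulated samples. The CpG + IFNα samples of Mir155hg lay above the CpG samples (0.77, SE 0.20), short of the size for a call, and since the gene had 160 counts outside the CpG + IFNα samples this is a description. At 11 counts in unstimulated cells and 9 with IFNα over 3 libraries each, an effect of IFNα alone was not detectable at this depth (ratio 0.657, exact 95% interval 0.241 to 1.74 for counting error).

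Mir17hg, on chromosome 14 from 115042879 to 115046727, was at 9.10, 13.9 and 15.9 CPM in unstimulated cells, 5.04, 15.2 and 14.5 with IFNα, 51.0, 64.2 and 49.9 with CpG, and 70.4, 99.0 and 87.4 with CpG + IFNα. Groups with and without CpG did not overlap, and the samples with both stimuli were the highest. The log2 fold change of Mir17hg was 2.07 with CpG (SE 0.25, adjusted p = 1.20e-08), and CpG + IFNα differed from CpG by 0.66 (SE 0.16, adjusted p = 0.00521). Dleu2, which spans chromosome 14 from 61602839 to 61682373 and carries the miR-15a and miR-16-1 genes, took another course. It was at 41.9, 26.7 and 30.0 CPM in unstimulated cells, 71.6, 123 and 107 with IFNα, 8.60, 9.98 and 12.0 with CpG, and 10.9, 6.55 and 13.4 with CpG + IFNα. Dleu2 had 222 counts outside the IFNα samples and met the minimum of 240 only through them, so that its change with IFNα in cells without CpG, 1.63 (SE 0.21), is a description, as is the interaction of -1.69 (SE 0.39). Its change with IFNα in cells with CpG was -0.07 (SE 0.32). Without IFNα replicate 2 the change of Dleu2 with IFNα was 1.45, and without CpG + IFNα replicate 2 its interaction was -1.39.

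Mir142hg was at 54.6, 40.6 and 40.6 CPM in unstimulated cells and 25.8, 12.8 and 18.5 with CpG, a log2 fold change of -1.24 (SE 0.30, adjusted p = 0.000484). Its IFNα samples, at 34.3, 107 and 52.7 CPM, spread more widely than any other group of this gene, with replicate 2 highest. Mirt1, listed with the microRNA hosts although no microRNA gene is annotated within it, fell from 60.1, 54.6 and 44.1 CPM to 2.46, 2.14 and 3 CPM with CpG (-4.31, SE 0.43). 4833407H14Rik lies within the bounds of Mirt1 on the opposite strand of chromosome 19 and fell as well (-3.76). The falls of Mirt1 and 4833407H14Rik are descriptions, since both met the minimum sum of counts only with their unstimulated samples. These held 167 of the 389 counts of Mirt1 and 123 of the 340 counts of 4833407H14Rik. Both genes had their highest IFNα value in replicate 2, and without that library the change of Mirt1 with IFNα was -1.16, likewise a description.

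IFNα raised 11 of the 91 genes, beside 4.56% of all genes tested. Of these 11, 5 were also higher with CpG + IFNα than with CpG. These 5 were A330040F15Rik, Gm47242, A930037H05Rik, Gm20559 and A530040E14Rik, and each of them was down-regulated by CpG alone. The fall of A330040F15Rik with CpG was lost without unstimulated replicate 3 (-0.57, adjusted p = 0.499). Of 15 interferon-stimulated coding genes, 15 were up-regulated with IFNα (median 4.81, beside 4.56% of all genes tested), 13 were down-regulated with CpG (median -2.35) and 15 were higher with CpG + IFNα than with CpG (median 5.21). These include Irf7, the transcription factor that amplifies type I interferon (4.83 with IFNα and -2.35 with CpG). The comparisons of IFNα and of CpG share the unstimulated samples, and those of CpG and of CpG + IFNα share the CpG samples.

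A330040F15Rik (chromosome 19, 12517915 to 12596566, minus strand) was at 3.64, 2.14 and 8.82 CPM in unstimulated cells, 108, 114 and 111 with IFNα, 2.46, 1.43 and 2 with CpG, and 22.4, 16.9 and 20.6 with CpG + IFNα. The IFNα samples were the highest and those with both stimuli the next. As 440 of its 596 counts lay in the IFNα samples, it met the minimum of 240 only through them, and its log2 fold change with IFNα, 4.44 (SE 0.26), is a description. CpG + IFNα differed from CpG by 3.25 (SE 0.35, adjusted p = 7.52e-09). Gm47242 lies on the same strand within the bounds of A330040F15Rik, at 12539588 to 12540823, so that the counting could have divided reads between them. It was at 8.19, 2.14 and 22.9 CPM in unstimulated cells, 169, 109 and 121 with IFNα, 0, 3.56 and 2.5 with CpG, and 48.0, 45.2 and 49.3 with CpG + IFNα. The change of Gm47242 was 3.48 with IFNα (SE 0.30) and 4.52 for CpG + IFNα against CpG (SE 0.41, adjusted p = 2.12e-10). Without unstimulated replicate 3, which held the highest unstimulated level of both genes, the change with IFNα was 4.55 for Gm47242 and 5.17 for A330040F15Rik. On the plus strand of the same region lies Fam111a, which encodes a protease that restricts viruses. It rose with IFNα (1.26, SE 0.16, adjusted p = 1.61e-07) and was at 0.02 (SE 0.19) between CpG + IFNα and CpG.

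Gm20559 (chromosome 6, 3333194 to 3346128) was at 75.5, 86.6 and 72.4 CPM in unstimulated cells, 154, 232 and 201 with IFNα, 3.07, 4.28 and 6.99 with CpG, and 14.7, 15.9 and 25.2 with CpG + IFNα. The 4 groups of Gm20559 did not overlap with each other. It rose with IFNα by 1.35 on the log2 scale (SE 0.16, adjusted p = 4.22e-08), was at -3.95 with CpG (SE 0.27) and rose by 1.87 from CpG to CpG + IFNα (SE 0.32, adjusted p = 5.74e-05). A930037H05Rik overlaps Rnf213, the gene of a large ubiquitin ligase, on the other strand of chromosome 11. Its levels were 10.0, 10.7 and 12.4 CPM in unstimulated cells, 25.2, 73.6 and 50.4 with IFNα, 3.07, 6.42 and 1.5 with CpG, and 14.7, 28.6 and 35.5 with CpG + IFNα. With 231 counts outside the IFNα samples it met the minimum of 240 only through them, and its log2 fold change with IFNα is a description, at 2.23 (SE 0.35) and at 1.82 without IFNα replicate 2. Rnf213 changed by 3.11 with IFNα, -2.40 with CpG and 4.02 from CpG to CpG + IFNα. A530040E14Rik, an antisense gene of chromosome 1, was at 8.19, 13.9 and 17.6 CPM in unstimulated cells and 62.6, 45.6 and 54.9 CPM with IFNα (2.01, SE 0.25), which is likewise a description, since 209 of its 321 counts lay in the IFNα samples.

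The other 6 genes raised by IFNα were not called between CpG + IFNα and CpG. They were Dleu2, 4632404H12Rik (1.87), AC113595.1 (1.25), Gm32856 (1.21), AU020206 (1.11) and BE692007 (1). AU020206 was at 72.8, 58.8 and 68.8 CPM in unstimulated cells, 119, 202 and 106 with IFNα, 59.6, 74.8 and 60.4 with CpG, and 42.5, 49.0 and 43.7 with CpG + IFNα. Its 3 CpG + IFNα samples thus lay below all others, whereas its IFNα samples lay above them. The calls of AU020206, BE692007 and Gm32856 with IFNα were lost without IFNα replicate 2, at log2 fold changes of 0.74, 0.92 and 1.04. That of BE692007 was also lost without IFNα replicate 3 and without unstimulated replicates 2 and 3 (0.87 at the lowest), and that of Gm32856 without CpG + IFNα replicate 2 (1.21, adjusted p = 0.102 from edgeR). BE692007 stood at the limit of size for a call and overlaps Ms4a6c, which rose with IFNα too (1.90). AW112010, an interferon-inducible transcript of immune cells, was at 36.4, 65.2 and 45.0 CPM in unstimulated cells and 87.8, 89.4 and 83.2 with IFNα, which did not overlap (0.85, SE 0.18, adjusted p = 0.000683) but missed the size for a call. It fell with CpG to 13.5, 19.2 and 13.0 CPM (-1.68, SE 0.23, adjusted p = 9.15e-08).

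**Figure D3:**
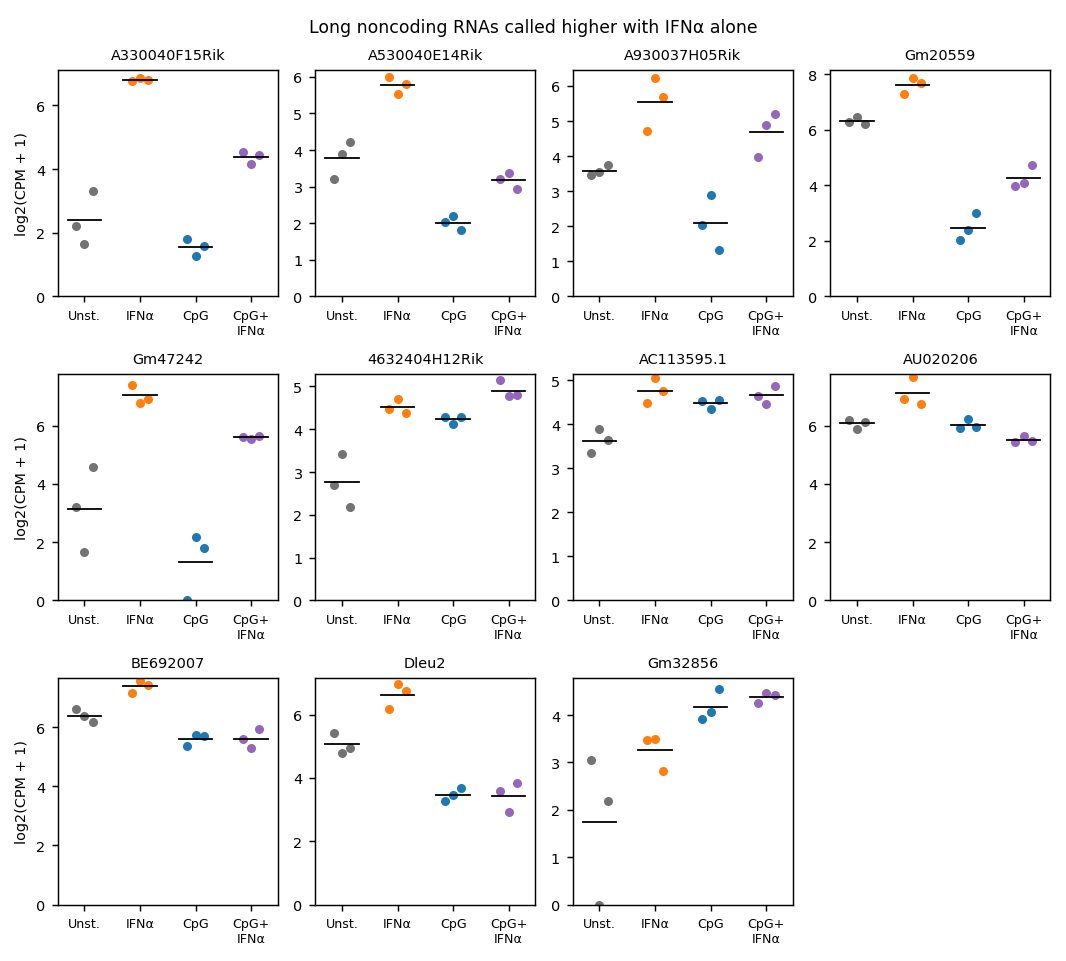
Level, as log2(CPM + 1), of the 11 long noncoding RNAs up-regulated by IFNα alone, in each of the 3 samples of the unstimulated (Unst.), IFNα, CpG and CpG + IFNα groups, with a line at the group mean. The first 5 panels (A330040F15Rik to Gm47242) are higher with CpG + IFNα than with CpG, whereas Dleu2 and BE692007 are at similar levels in both of these groups.

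Promoters were searched on both strands for motifs of the factors that interferon and TLR9 activate, in RefSeq windows (GRCm38.p6) of 250 bases before to 50 after the start, which were found for 58 of the 91 genes. The interferon-stimulated response element (ISRE) was searched as GAAA followed after 2 bases by GAAA, the GAS element as TTCNNNGAA, and NF-κB sites by a pair of consensus words. Of all 32851 promoters, 3.44% held the ISRE, 8.30% the GAS element, and 0.155% and 0.0883% the NF-κB words. Of the 58 genes, 1 held the ISRE and 3 the GAS element, and 0 held either NF-κB word. A gene was counted when any of its promoters held the motif, and some genes had several (8 for Gm15411). The shares over all promoters are per single promoter, so that they are not a like measure. A wider ISRE, with 3 bases between its GAAA words, was added after the promoters had been seen and was in 4 of the 58 genes and in 2.75% of all promoters. In the promoters printed, matches of different motifs did not overlap. A match is a description of letters and is no evidence of binding.

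The promoters of 3 genes with a called change with IFNα are printed, with motif matches in capitals. They were chosen after their matches and values had been seen, as examples of a window with the wider ISRE, of one with no match and of one with several matches, and nothing is read from them about the response. Gm20559 (chr6:3346089-3346388, minus strand), raised by IFNα, held the wider ISRE just after the start shown, 1 of 3 starts in RefSeq. A330040F15Rik (chr19:12596517-12596816, minus strand), raised by IFNα, held none of the motifs. Rab10os (chr12:3235541-3235840, plus strand), lowered by IFNα, held from left to right a GAS element, the ISRE, the wider ISRE and a second GAS element, and its RefSeq start lies 287 bases from that of GENCODE. The wider ISRE was also held by Arhgap27os3 and BC002059, at log2 fold changes of 0.59 and 0.08 with IFNα, neither of them called.
Gm20559: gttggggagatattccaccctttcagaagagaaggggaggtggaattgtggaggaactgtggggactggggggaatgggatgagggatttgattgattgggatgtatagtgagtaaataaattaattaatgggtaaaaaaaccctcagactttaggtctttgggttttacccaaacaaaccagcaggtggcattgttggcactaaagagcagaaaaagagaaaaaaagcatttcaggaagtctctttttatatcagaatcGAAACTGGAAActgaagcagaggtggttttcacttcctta
A330040F15Rik: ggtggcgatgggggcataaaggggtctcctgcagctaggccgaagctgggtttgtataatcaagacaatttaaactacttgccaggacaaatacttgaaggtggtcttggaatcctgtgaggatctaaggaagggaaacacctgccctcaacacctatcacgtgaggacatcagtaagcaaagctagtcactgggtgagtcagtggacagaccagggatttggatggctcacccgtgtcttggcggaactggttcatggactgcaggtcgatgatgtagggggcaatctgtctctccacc
Rab10os: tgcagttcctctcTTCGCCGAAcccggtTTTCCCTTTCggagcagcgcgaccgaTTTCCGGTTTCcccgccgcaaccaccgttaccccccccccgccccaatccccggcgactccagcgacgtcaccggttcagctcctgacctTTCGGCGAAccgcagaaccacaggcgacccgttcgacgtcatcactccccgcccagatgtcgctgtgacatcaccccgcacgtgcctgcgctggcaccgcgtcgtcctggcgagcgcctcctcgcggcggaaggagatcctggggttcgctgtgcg

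IFNα lowered 7 genes, beside 4.07% of all genes tested, namely Gm15411, Gm31243, Rab10os, Gm12158, Gm12940, Pvt1 and Gm47664. Gm15411 (chromosome 5, 148995651 to 149015813) was at 130, 153 and 145 CPM in unstimulated cells, 14.1, 35.3 and 20.6 with IFNα, 0.614, 2.85 and 0.998 with CpG, and 1.64, 1.72 and 0.514 with CpG + IFNα. It fell with IFNα alone (-2.53, SE 0.20, and -2.99 without IFNα replicate 2). With CpG it was lower still, at 7 counts over 3 libraries against 450 in unstimulated cells (ratio 0.00979, exact 95% interval 0.00391 to 0.0203 for counting error). These falls of Gm15411 are descriptions, since 450 of its 565 counts lay in unstimulated cells and it met the minimum only with them. At 9 counts with CpG + IFNα, a further effect of IFNα on Gm15411 was not detectable. Gm31243, antisense to the gene of the B cell adaptor Bank1 on chromosome 3, was at 80.1, 89.8 and 70.6 CPM in unstimulated cells, 23.2, 43.8 and 20.6 with IFNα, 5.53, 11.4 and 7.49 with CpG, and 3.82, 3.45 and 5.65 with CpG + IFNα. It fell at each stimulus, at -1.39, -3.31 and -4.22 in that order. These falls are descriptions, since 252 of its 442 counts lay in unstimulated cells and it met the minimum only with them. The changes of Bank1 were -0.41, -2.54 and -3.59, where the first was not called. The change of Gm31243 with IFNα was -1.87 without IFNα replicate 2.

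Rab10os was at 71.9, 51.3 and 60 CPM in unstimulated cells, 20.2, 22.5 and 31.3 with IFNα, 25.2, 28.5 and 34.9 with CpG, and 36.0, 36.2 and 41.1 with CpG + IFNα. Each stimulus alone lowered Rab10os (-1.30, adjusted p = 5.50e-06, and -1.04, adjusted p = 8.99e-06), and the interaction was 1.64 (SE 0.27, adjusted p = 6.88e-05). The call with CpG was lost when unstimulated replicate 1, CpG replicate 1 or CpG replicate 2 was left out, at between -0.98 and -0.89. Its coding partner Rab10 on the other strand changed by 0.0039 with IFNα and 0.43 with CpG. Gm12158 is antisense to Ebf1, the gene of a transcription factor of B cell identity. It fell with IFNα (-1.30, SE 0.27) and with CpG (-2.06, SE 0.28), beside -0.98 and -1.70 for Ebf1. The falls of Gm12158 are descriptions, since 131 of its 313 counts lay in unstimulated cells and it met the minimum only with them.

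Pvt1, the neighbor of Myc on chromosome 15 (62037986 to 62378096), was the 1 gene lowered by IFNα and raised by CpG. It was at 5.46, 5.35 and 7.06 CPM in unstimulated cells, 3.03, 1.82 and 3.05 with IFNα, 19.6, 22.1 and 17.0 with CpG, and 27.3, 32.1 and 30.3 with CpG + IFNα. The 4 groups did not overlap. Pvt1 had 231 counts outside the CpG samples and 126 outside the CpG + IFNα samples, so that it met the minimum of 240 only through the groups in which it was high, and its rise is a description. This rise was 1.68 with CpG (SE 0.31) and 2.31 with CpG + IFNα (SE 0.28). Its fall with IFNα (-1.21, SE 0.49, adjusted p = 0.0957) was lost in 7 of the 12 fits that left out 1 sample, among them those without each unstimulated or IFNα sample and without CpG replicate 2.

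CpG lowered 34 genes, beside 25.5% of all genes tested. Its comparison shares the unstimulated samples with that of CpG + IFNα, and the values of both are given side by side. Gm26740 (chromosome 10, 22187013 to 22302835, minus strand) was at 71.0, 54.6 and 66.2 CPM in unstimulated cells, 42.4, 90.0 and 59.5 with IFNα, 0.614, 1.43 and 0.998 with CpG, and at 0 in all 3 CpG + IFNα libraries. Against a floor of 3 counts over the group, it was at least 143-fold lower with CpG + IFNα than in unstimulated cells. Its 5 counts with CpG against 204 in unstimulated cells gave a ratio of 0.0154 (exact 95% interval 0.00495 to 0.0366 for counting error). Ifi30 fell from 361, 418 and 398 CPM to 49.7, 62.7 and 68.9 CPM with CpG and 40.4, 37.3 and 49.3 CPM with CpG + IFNα (-2.69, SE 0.13, adjusted p = 3.10e-18, and -3.22, SE 0.13, adjusted p = 2.80e-20). The IFNα samples of Ifi30, at 250, 265 and 269 CPM, lay between.

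1810026B05Rik, which RefSeq names Chaserr and which is known as a regulator of its neighbor Chd2, was at 241, 232 and 278 CPM in unstimulated cells, 140, 175 and 176 with IFNα, 61.4, 65.6 and 68.4 with CpG, and 58.4, 66.2 and 68.9 with CpG + IFNα. The CpG and CpG + IFNα samples of this gene overlapped, and both lay below all others. It fell with CpG by 1.94 on the log2 scale (SE 0.13, adjusted p = 5.63e-15), and Chd2, on the same strand and overlapping it, fell by 2.43 (SE 0.15, adjusted p = 2.52e-15). Gm28875 fell from 62.8, 65.2 and 52.9 CPM to 4.91, 4.28 and 6.99 CPM with CpG (-3.42, SE 0.25, adjusted p = 8.81e-14). Gm15675 fell from 35.5, 47.1 and 42.4 CPM to 2.46, 2.85 and 2 CPM (-4.07, SE 0.34), and had 5 counts in all with CpG + IFNα. Its fall is a description, since 131 of its 333 counts lay in unstimulated cells. It met the minimum sum of counts only with them.

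Beside 20.1% of all genes tested, CpG raised 20 of the 91 genes. Besides the small RNA hosts these included AI662270 (chromosome 11, 83223576 to 83226604), which was at 78.3, 73.8 and 88.2 CPM in unstimulated cells, 115, 130 and 127 with IFNα, 278, 269 and 287 with CpG, and 288, 279 and 278 with CpG + IFNα. Replicates of AI662270 lay close together, and both groups with CpG were alike in range. Its log2 fold change with CpG was 1.79 (SE 0.12, adjusted p = 1.31e-14). 2010204K13Rik on chromosome X rose from 6.37, 5.35 and 6.18 CPM to 51.6, 46.3 and 42.9 CPM with CpG and 34.4, 33.5 and 31.3 CPM with CpG + IFNα (2.95, SE 0.27, adjusted p = 1.53e-11, and 2.45, SE 0.28). 2900097C17Rik, named Norad in RefSeq and known to bind PUMILIO proteins, rose with CpG (1.62, SE 0.18, adjusted p = 1.11e-09).

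Against CpG alone, CpG + IFNα raised 2 genes besides the 5 above, where 2.95% of all genes tested were raised. Gm28791 rose from 7.98, 9.27 and 6.49 CPM to 17.5, 16.2 and 18.0 CPM (1.13, SE 0.29). Without CpG replicate 3 its change was 0.99 and the call was lost. This rise is a description, since Gm28791 met the minimum sum of counts only through the CpG + IFNα samples. They held 114 of its 255 counts. 2310001H17Rik rose from 3.07, 4.99 and 5.49 CPM to 9.82, 8.97 and 9.76 CPM (1.04, SE 0.33, adjusted p = 0.0356). Gm28791 is annotated as sense_intronic, a class whose reads cannot be told apart from unspliced RNA of the same strand. The genes lowered by the addition of IFNα were Gm26740, described above, and 5830428M24Rik. The latter fell from 5.53, 7.84 and 6.99 CPM to 2.18, 3.10 and 2.06 CPM (-1.39, SE 0.42, adjusted p = 0.027). The call of Gm26740 in this comparison (adjusted p = 0.0886) rested on 5 counts in the CpG libraries and was lost in 6 of the 12 fits that left out 1 sample, each CpG and each CpG + IFNα library among them.

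By the test of the interaction 16 genes were called, beside 3.09% of all genes tested upwards and 3.17% downwards. Among them, Gm15411, Gm12158, Pvt1, Gm47664, Gm28791, 4632404H12Rik, Dleu2, 5830428M24Rik and Gm26740 met the minimum sum of counts only through a group in which they were high. The interactions of these genes are descriptions, and nothing is read from the number called. In 7 of the 16 the change with IFNα was lower in the presence of CpG, with the smallest p for AU020206 (-1.62, SE 0.26, adjusted p = 5.19e-05), Dleu2, described above, and BE692007 (-1.01, SE 0.23, adjusted p = 0.00387). The call of BE692007 was lost in 7 of the 12 fits that left out 1 sample (-1.19 to -0.83). In the other 9 it was higher in the presence of CpG, with the smallest p for Rab10os, Gm12940 (1.44, SE 0.25, adjusted p = 0.000139) and Xist. Gm12940 was at 128, 110 and 144 CPM in unstimulated cells, 40.4, 69.9 and 42.0 with IFNα, 41.1, 60.6 and 47.9 with CpG, and 50.7, 52.1 and 62.2 with CpG + IFNα. All stimulated samples of Gm12940 lay below the unstimulated ones and overlapped with each other. It overlaps Sfpq on the same strand, and Sfpq changed by -0.39 with IFNα and 0.81 with CpG.

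**Figure D4:**
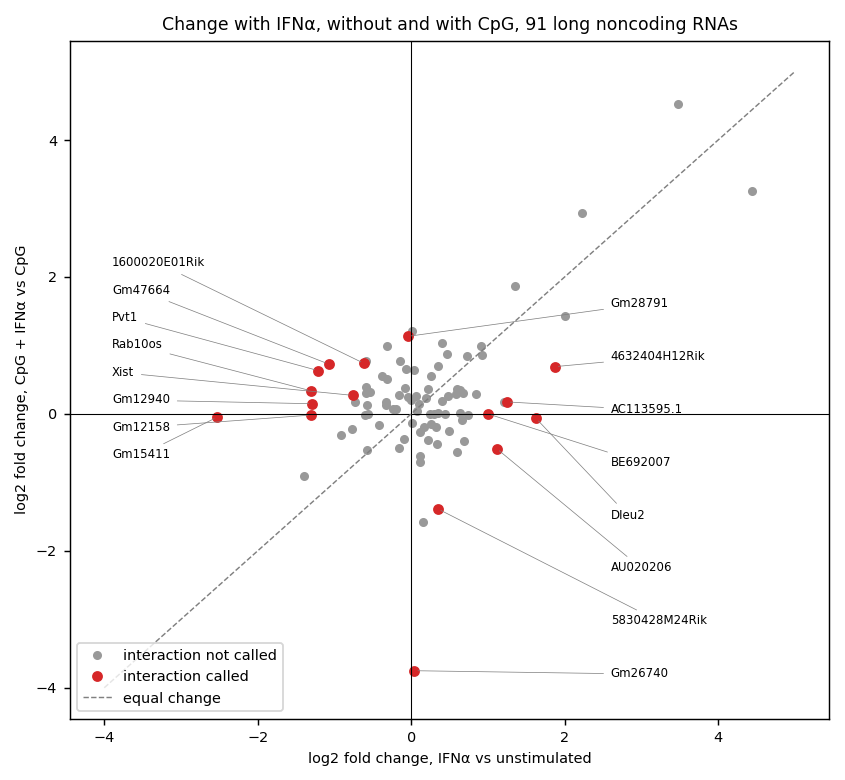
Log2 fold change with IFNα in cells without CpG (x axis, IFNα vs unstimulated) against that in cells with CpG (y axis, CpG + IFNα vs CpG) for 91 long noncoding RNAs. The 16 genes with a called interaction are red and named, the dashed line marks equal change, and genes such as Dleu2 (1.63 and -0.07) and Gm15411 (-2.53 and -0.05) lie near the horizontal axis, far from that line.

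Antisense and adjacent genes were set beside their coding neighbors. A coding gene that overlapped on the other strand or started within 5000 bases was tested for 31 of the 91 genes, in 40 pairs. Both genes of a pair were called in 5 pairs with IFNα, 5 of which moved in the same direction, and in 10 pairs with CpG, 9 of which did. With CpG + IFNα against unstimulated cells, both were called in 14 pairs, 10 in the same direction and 4 in opposite directions. Among 1180 pairs of coding genes placed in the same way, both were called in 1.53% for IFNα, 18.1% for CpG and 18% for the combined stimulus, and of these pairs 83.3%, 64.3% and 61.3% moved in the same direction. The 5 pairs with IFNα come from 3 loci, and nothing particular to the long noncoding RNAs is read from these counts. Across the 40 pairs Pearson's r of the log2 fold changes was 0.383 with IFNα and 0.415 with CpG (Spearman's rho 0.373 and 0.469). These pairs share libraries and some share a gene, and the strand setting of the counting is not given in the sources used here, so that reads from overlapping genes on either strand may have been divided or lost. The plot of coding neighbors shows the pairs.

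Individual pairs went different ways. The pairs with IFNα were A930037H05Rik with Rnf213, BE692007 with Ms4a6c and Gm8369, and A330040F15Rik and Gm47242 with Fam111a. 1600020E01Rik was the exception with CpG. It fell from 40.9, 35.3 and 41.5 CPM to 6.14, 11.4 and 9.49 CPM (-2.13, SE 0.27, adjusted p = 3.13e-08), whereas Pcbp1 on the other strand, the gene of an RNA-binding protein, rose (1.16, SE 0.11, adjusted p = 4.69e-11). Some neighbors of interferon-stimulated genes were not up-regulated with IFNα. Znfx1, which encodes a sensor of viral RNA and overlaps Zfas1, rose by 2.02 on the log2 scale with IFNα, and Zfas1 differed by 0.59 (SE 0.14, adjusted p = 0.00138). Parp9 rose by 2.96, whereas Gm15564 on its other strand was at -0.91 (SE 0.30, adjusted p = 0.0283).

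**Figure D5:**
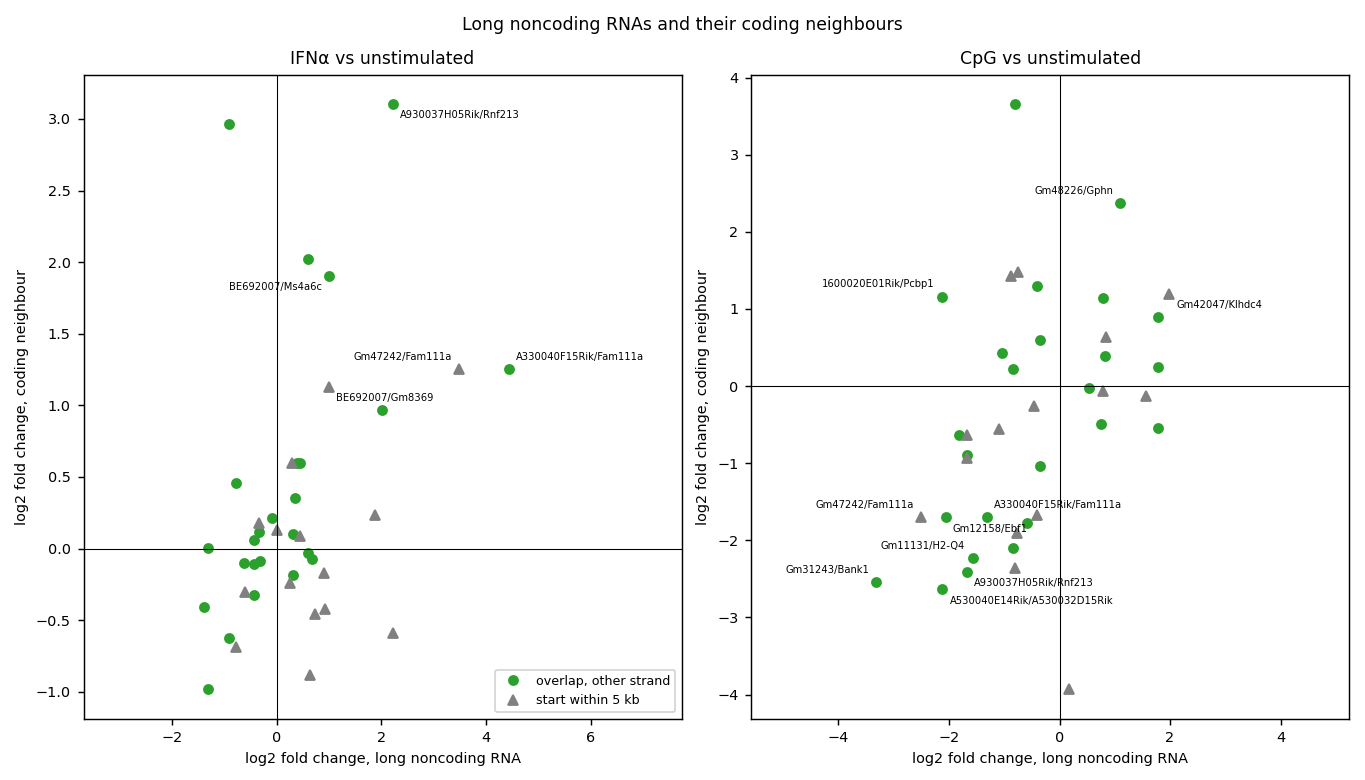
Log2 fold change of each long noncoding RNA (x axis) and of a coding gene that overlaps it on the other strand (circles) or starts within 5000 bases (triangles), over 40 pairs, with IFNα (left) and with CpG (right) against unstimulated cells. Named pairs had both genes called. The 5 with IFNα lie in the upper right, and with CpG 1600020E01Rik and Pcbp1 are the 1 pair of 10 with opposite signs.

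The genes were also counted by annotation, beside 20.1% up-regulated and 25.5% down-regulated with CpG among all genes tested. Of the 16 antisense genes, 1 was up-regulated and 8 were down-regulated with CpG (median log2 fold change -0.94), and of the 38 lincRNA genes 11 were up-regulated and 11 down-regulated (median -0.10). Of the 31 processed_transcript genes, 7 were up-regulated and 12 down-regulated with CpG. Genes with a single exon were up-regulated in 7 and down-regulated in 7 of 23 cases with CpG, and those with more exons in 13 and 27 of 68. Whether these groups differ was not tested. The 26 genes called in no comparison included Gas5, Snhg8, Snhg12, Snhg20, Oip5os1 and Gt(ROSA)26Sor. Oip5os1, also called Cyrano, was at 73.7, 106 and 75.0 CPM in unstimulated cells and at 128, 119 and 154 CPM with IFNα, which was short of a call (0.67, SE 0.15, adjusted p = 0.00158).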

How the data were processed

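The authors deposited UMI counts per gene and sample without normalization. Per the labels and the methods of the study, reads were processed with UMI-tools 1.1.2, Trim Galore 0.6.7, HISAT2 2.2.1 (GRCm38) and featureCounts 2.0.1, and Tlr9 was extended by 3 kb. The strand setting and annotation release are not given in the sources used here. All 22561 identifiers were in GENCODE M21, which gave positions. A list of sample barcodes was not used.

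In R 4.3.3, edgeR 4.0.16 computed TMM factors, filterByExpr kept 9431 genes, and quasi-likelihood fits (glmQLFit, then glmQLFTest) used the 12 samples together, with 8 residual degrees of freedom. Calls combined a Benjamini-Hochberg threshold of 0.1 with a log2 fold change beyond 1 in size. SEs were derived from the log2 fold change and the F statistic. The test was checked on simulated counts. DESeq2 1.42.0 was an alternative, beside other normalizations, filters, thresholds, member rules and left-out samples. Depth was 922450 to 2923865 counts per sample. Intervals and floors (3 counts) cover counting error only.

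The members and gene lists were chosen with earlier results of these data known. Genes named were the 10 with the highest mean level, up to 5 in each direction per comparison with the smallest p among calls whose replicates did not overlap, up to 3 in each direction with the smallest p among calls of the interaction, members of the role lists, hosts of small RNAs, the genes at the edges of the rule, and their neighbors. Other genes were named after their values were seen. The methods of the study state no pairing, so the replicate numbers were not used for it. Some pairs of stimulated samples with the same number deviated together, and others did not.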

Additional observations from a re-analysis of the deposited data

Results flagged for a closer look

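By edgeR's test of the interaction, 16 of the 91 genes were called, beside 3.09% of all genes tested upwards and 3.17% downwards. Among them, Gm15411, Gm12158, Pvt1, Gm47664, Gm28791, 4632404H12Rik, Dleu2, 5830428M24Rik and Gm26740 met the minimum sum of counts only through a group in which they were high. The interactions of these genes are descriptions, and nothing is read from the number called. The interaction on the log2 scale was positive for Gm15411 (2.48), Pvt1 (1.85), Gm47664 (1.80), Rab10os (1.64), Gm12940 (1.44), 1600020E01Rik (1.35), Gm12158 (1.29), Gm28791 (1.18) and Xist (1.03). It was negative for Gm26740 (-3.79), 5830428M24Rik (-1.73), Dleu2 (-1.69), AU020206 (-1.62), 4632404H12Rik (-1.18), AC113595.1 (-1.07) and BE692007 (-1.01). For Gm15411 the CpG and CpG + IFNα groups had 7 and 9 counts, and for Gm26740 they had 5 and 0, so these values depend on how the fit treats low counts. Without CpG + IFNα replicate 2 the interaction was no longer called for Gm15411, Gm26740, Gm28791, Gm12158, Xist (0.89), BE692007 (-0.83), AC113595.1 (-0.96) and 4632404H12Rik (-1.10). Without IFNα replicate 2 it was no longer called for AC113595.1, 4632404H12Rik and BE692007, and was called for 6 further genes, among them Mirt1 (2.15) and Malat1 (1.03). The interactions of Gm28791 and Gm26740 were near the threshold for the adjusted p and were each lost when most single samples were left out. In the 12 fits without 1 sample, that of BE692007 was lost in 7 (range -1.19 to -0.83), that of Xist in 5 (0.89 to 1.18), that of Gm15411 in 4 (2.15 to 3.17), among them those without CpG replicates 1 and 3 and CpG + IFNα replicate 1, and that of Gm12158 in 3 (1.01 to 1.78), also without IFNα replicate 1 and CpG replicate 1. Mitochondrial and rRNA genes took 11.65% of the counts of IFNα replicate 2 and 6.399% of those of CpG + IFNα replicate 2, and their part in these results was not tested.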

How the results depend on the processing

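Of 106 named calls recomputed under the alternatives, 2109 of 2210 values kept their direction and side of the threshold, 101 were no longer called, in 20 of the calls, and 0 changed sign. Raising the size limit to a log2 fold change of 2 left 4 higher and 1 lower with IFNα, 6 and 16 with CpG, 14 and 12 with CpG + IFNα against unstimulated cells, 3 and 1 against CpG, and 1 and 1 for the interaction. The adjusted p alone gave 23 and 17 with IFNα, 32 higher with CpG, 22 and 6 for CpG + IFNα against CpG, and 16 higher for the interaction. The genes lower with CpG + IFNα than with CpG were 1 at an adjusted p under 0.05, 1 in a fit of the groups compared, and 0 when every library was thinned at random to the depth of the shallowest. The genes lower by the interaction were 4 with library size alone, 3 with DESeq2 and 3 with thinned libraries. Choosing genes by a mean of 10 CPM gave 120 genes, which included all 91, with 11 lower with IFNα and 44 lower with CpG + IFNα than in unstimulated cells. Choosing by a sum of 480 counts gave 50 genes, with 6 higher and 3 lower with IFNα, 13 and 16 with CpG, 17 and 12 with CpG + IFNα, 3 and 0 against CpG, and 4 and 3 for the interaction; their mean share of the library was 0.719% in unstimulated cells, 0.48% with CpG and 0.564% with CpG + IFNα. With coding neighbors within 50000 bases, pairs called in the same direction numbered 9 with IFNα, 25 with CpG, 26 with CpG + IFNα and 3 for the interaction. The smaller counts follow from fewer genes or stricter limits, and otherwise the cause was not tested.

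When 1 sample at a time was left out, the counts of higher and lower genes ranged from 8 to 14 and 5 to 8 with IFNα, 19 to 22 and 32 to 35 with CpG, 26 to 28 and 25 to 29 with CpG + IFNα, 7 to 9 and 1 to 2 against CpG, and 5 to 15 and 3 to 8 for the interaction. Without both replicates 2 that stood apart, an alternative added after seeing the data, they were 8 and 8, 20 and 34, 28 and 29, 7 and 2, and 11 and 5. With a replicate block they were 10 and 7, 20 and 34, 27 and 28, 7 and 2, and 9 and 8. The block ended the call of BE692007 with IFNα (0.9999 against 1.0039 on the log2 scale) and added that of Arhgap27os3 for the interaction (-1.16, adjusted p = 0.069 from edgeR), and changed no other call of the 91 genes. Of 18 pairs of samples with the same number, 6 had a correlation of deviations over 0.1 (range -0.0721 to 0.222), all 6 among the 9 pairs of stimulated samples, whereas pairs with other numbers reached at most 0.0658. The reported values use no block, because the methods of the study state no pairing. A source shared by stimulated samples with the same number was not tested. Depth limits the least abundant genes, for which 3 counts is the floor.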
